A study of Mus musculus with 9 samples.

Results

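The lungs described here were the PBS group of a study of antibodies against PD1, a receptor that restrains T cells, and they show what a lung holds in a tumour-bearing mouse that received no antibody. The members were chosen by their labels alone, as the libraries titled as controls, and there were 3 of them among 9 lung libraries in the series. Each came from a female BALB/c mouse, aged 4 to 6 weeks, with 4T1 cells, a mouse mammary carcinoma line, injected into the right flank. Phosphate-buffered saline (PBS) was given on days 7 and 14 after engraftment, and the lungs were taken on day 21. RNA was extracted with a QIAamp RNA blood mini kit and polyadenylated RNA was sequenced. The sources used here do not give whether the lungs were perfused or carried metastases, and no lung of a mouse without a tumour was analysed here. The 3 lungs are called PBS control 1, 2 and 3, and values given together follow that order. The labels name no animals or batches, so the spread between these samples may be technical. Defining genes of the tissue and of its neutrophils were present in every lung: S100a8, S100a9, Ly6g, Sftpc and Pecam1 were each at 19.04 TPM (transcript abundance corrected for length) or more.

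The lung is built of alveoli lined by flat type 1 cells and surfactant-making type 2 cells, of airways lined by club and ciliated cells, and of a dense capillary bed, with alveolar macrophages on the air side. Neutrophils, short-lived phagocytes from the bone marrow, pass through and lodge in these capillaries. The 4T1 carcinoma is known for releasing granulocyte colony-stimulating factor, for a marked rise of neutrophils in the blood and for spreading to the lung. Neutrophils carry very large amounts of S100a8 and S100a9 RNA, whose calcium-binding products pair to form calprotectin, an antimicrobial protein and a ligand of innate immune receptors.

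S100a8 and S100a9 were the most abundant genes of these lungs and varied together between them, so the stretches upstream of their starts are shown, taken from RefSeq for GRCm38.p6. They are close neighbours on chromosome 3 of the mouse. The S100a8 stretch is chr3:90668821-90668977 on the plus strand and the S100a9 stretch is chr3:90695722-90695971 on the minus strand, each written 5′ to 3′ along its gene and ending before the gene's span in GENCODE M21.
S100a8: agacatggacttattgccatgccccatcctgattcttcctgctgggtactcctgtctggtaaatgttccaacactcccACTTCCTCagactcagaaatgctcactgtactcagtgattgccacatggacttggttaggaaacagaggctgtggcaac
S100a9: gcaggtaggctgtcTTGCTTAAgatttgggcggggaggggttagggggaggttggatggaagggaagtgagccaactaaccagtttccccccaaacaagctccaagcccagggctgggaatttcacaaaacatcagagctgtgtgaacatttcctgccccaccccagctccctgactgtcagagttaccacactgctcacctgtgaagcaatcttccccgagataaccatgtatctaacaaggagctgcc
Capitals mark matches to 2 motifs of factors that act in granulocyte development, searched on both strands in the 250 bases before the RefSeq start. For S100a8 only the first 157 of these bases are printed, because its GENCODE M21 span begins before the RefSeq start. Distances are counted from the RefSeq start, not from the end of the printed stretch. GAGGAAGT, a core of ETS factors such as PU.1, occurs in S100a8, there as its reverse complement, 172 bases before the start. TTGCNNAA, a core of C/EBP factors, occurs in S100a9, 236 bases before the start. Of all 32851 promoters in the RefSeq table, 2.44% hold the first and 9.56% the second. Of 36 promoters of 34 genes on the neutrophil lists used below, 8 hold the first and 9 the second. The 2 matches lie in different genes and do not overlap. A match describes the letters and is not evidence of binding.

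TPM values correct for transcript length and add to the same total in each lung, so levels can be compared between genes, and a gene's share is its part of all TPM. They keep no sequencing depth, which is therefore unknown. Of 45706 gene rows, 12766 averaged 1 TPM or more and are called expressed here, 11854 reached 1 TPM in every lung, and 24366 were at 0 in all of them. Spearman correlations across the expressed genes were 0.972 to 0.980 between lungs, and genes are not independent replicates. The lowest lay between PBS control 2 and 3. A gene is said to differ more than 2-fold when its highest TPM + 1 exceeded its lowest by that factor, and 7.52% of the 12766 genes did (960). The share depended on level. It was 12.2% among genes with a mean of 1 to 10 TPM, 4.05% from 10 to 100 TPM and 2.37% above that. A difference between fewer lungs is smaller by construction, and over all genes the share was 4.54% when PBS control 1 was left out, 2.52% when PBS control 2 was and 3.99% when PBS control 3 was. The median gene had a highest value 1.28 times its lowest on this scale. Across all these genes the median log2 difference was -0.17 for PBS control 2 against 3, and with median-of-ratios scaling it was 0.01, so PBS control 2 lay low against PBS control 3 by that much before any group of genes is considered. Of all 12766 genes, 53.9% were lowest in PBS control 2 and 48.1% highest in PBS control 3, and after median-of-ratios scaling 37.7% and 30.6%. Counts of genes lowest or highest in a lung are to be read against these shares. The gene lists used below were chosen with earlier results of these data known. No test was made, since the 3 lungs form 1 group. As bulk samples, they cannot show whether fewer cells of a type or less RNA per cell lie behind a lower level. As a check of the labels, Xist, made from the inactive X chromosome, was at 20.5, 20.4 and 27.9 TPM, and the Y-linked Ddx3y, Uty, Kdm5d and Eif2s3y were listed at 0 in each lung.

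A small number of genes held a large part of the RNA. S100a9 and S100a8 alone held the first 10% of the mean TPM, and 154 genes held 50%. By lung, 50% was reached with 150, 141 and 166 genes. S100a9, at chr3:90692632-90695721 of GRCm38, stood at 71434, 91362 and 67487 TPM. S100a8, at chr3:90668978-90670035, stood at 55875, 76037 and 53054 TPM. PBS control 2 was highest in both genes, and PBS control 1 and 3 lay close to each other below it. The next gene was Tmsb4x, thymosin beta 4, which binds actin monomers, at 9859 ± 528 TPM (SD, n = 3, as for all values written with ±). Lyz2, the lysozyme of macrophages, neutrophils and type 2 cells, was at 9010.4, 6785 and 8492 TPM and lowest in PBS control 2. Of the first 30 genes, 9 beside the calprotectin pair and Lyz2 are known for neutrophils or other myeloid cells: Retnlg, Wfdc17, Ifitm1, Ifitm2, Ifitm6, Il1b, Lcn2, Ngp and S100a11, which is also found in many other cells. Retnlg, a resistin-like secreted protein of neutrophils, was at 7367 ± 999.7 TPM. Wfdc17, a whey acidic protein family member of myeloid cells, was at 5873 ± 647 TPM. Ifitm1 was at 5813 ± 1253 TPM, with 5269, 7246 and 4923 in the single lungs. The cytoskeletal Actb, Actg1 and Tmsb4x, the ferritin chains Ftl1 and Fth1, and the translation genes Rps27, Rps9, Rplp1, Eef1a1 and Tpt1 were also among the first 30. Scgb1a1, the secretoglobin of club cells in the airways, was the one gene of the lung epithelium among them, at 4254, 2608 and 6649 TPM. Together the first 30 rows held 27.9, 30.9 and 27.2% of the TPM.

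**Figure D1:**
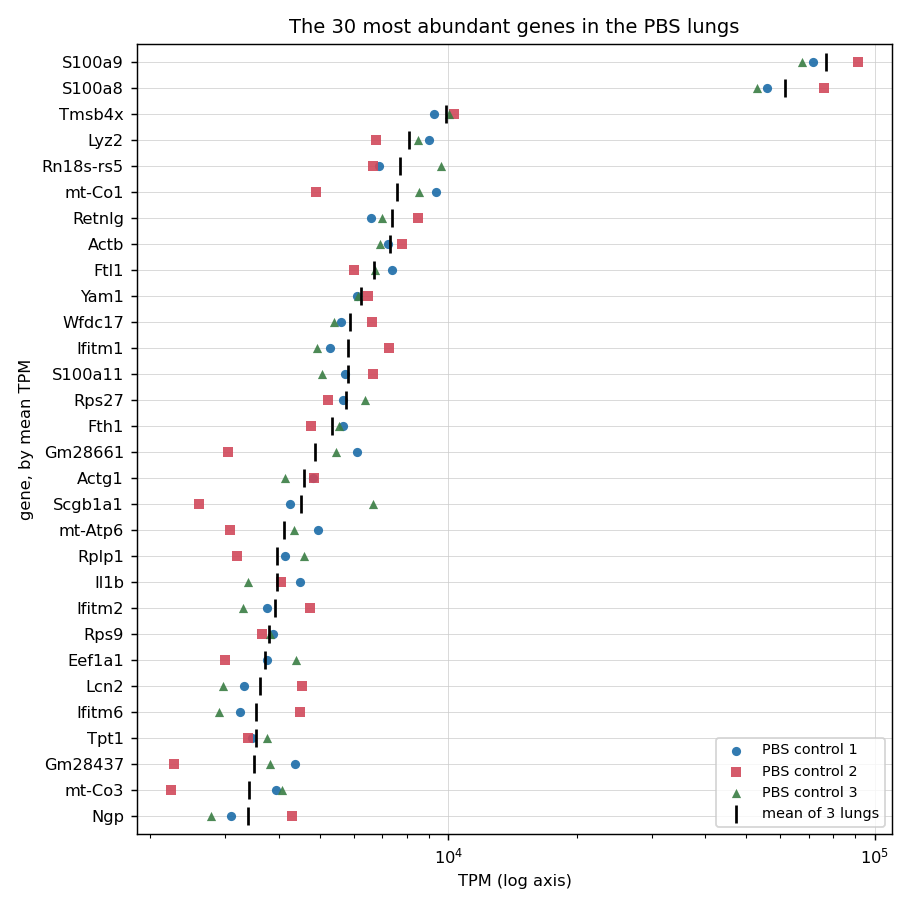
TPM of the 30 most abundant genes in each PBS lung, on a log axis, with black bars for the mean of the 3 lungs. S100a9 and S100a8 lie far to the right of all others, PBS control 2 is highest for them, and it is lowest for Scgb1a1 and the mitochondrial genes.

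Several of these rows do not stand for a separate messenger. Rn18s-rs5, a copy of ribosomal RNA, and Yam1, which GENCODE M21 calls Gm42418 and places on the other strand inside the span of the first on chromosome 17, held together 1.30, 1.31 and 1.58% of the TPM although polyadenylated RNA had been selected. The pseudogenes Gm28661, Gm28437, Gm10925 and Gm29216 are annotated on chromosome 1 and were matched with blastn to mt-Co2, mt-Co3, mt-Atp6 and mt-Co1 of the mitochondrial genome, at identities of 100, 100, 100 and 99.8%. Reads cannot be told apart between such copies, so the levels of both members of each pair are uncertain. The 13 protein genes of the mitochondrial genome, which encode subunits of the respiratory chain and ATP synthase, held 4.08, 2.14 and 3.67% of the TPM and these 4 pseudogenes a further 1.73, 0.908 and 1.51%. All 13 were lowest in PBS control 2, also after median-of-ratios scaling. Ribosomal protein genes, 87 rows, held 9.45, 7.95 and 10.8%, again with the lowest value in PBS control 2.

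The 3 neutrophil lists together held more TPM than any other lineage in each lung. Without the calprotectin pair, 37 neutrophil genes still held 4.21, 5.27 and 3.74% of the TPM, and with it 39 genes held 16.9, 22.01 and 15.8%. Of 22 genes of mature neutrophils, all were expressed and the least abundant, Padi4, which citrullinates histones, was at 171 ± 31.1 TPM. The median of their means was 660.0 TPM. Ly6g, the surface protein used to identify mouse neutrophils, lies at chr15:75155240-75159126 and was at 456, 638 and 458 TPM. Csf3r, the receptor for granulocyte colony-stimulating factor, was at 1691, 2016 and 1521 TPM. Its ligand gene Csf3 was at 0.0498, 0.170 and 0 TPM in the lung. Wfdc21 was at 3090.2, 3779.6 and 2843 TPM, and Ifitm6, an interferon-induced transmembrane family member, at 3247, 4488 and 2901 TPM. PBS control 2 was the highest lung for 19 of the 22 genes, against 26.3% of all genes, and PBS control 3 the lowest for 19, against 18.4%. None differed more than 2-fold, against 7.52% of all genes and 2.37% of those at 100 TPM or more (after median-of-ratios scaling, 1 did). Il1b, the cytokine interleukin 1 beta, was one of the 3 that peaked in PBS control 1, at 4478, 4046 and 3389.6 TPM.

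Granule genes are made in steps as neutrophils mature in the marrow, the primary granule enzymes first and the secondary and tertiary granule proteins later. The later granule genes named next were more abundant than those of the primary granules. Lcn2, a siderophore-binding protein, was at 3323, 4543 and 2970.3 TPM. Ngp was at 3096, 4311 and 2779 TPM and Ltf, lactoferrin, at 1673, 2223 and 1467 TPM. Camp, the cathelicidin, was at 1085, 1388 and 908 TPM. All 4 were highest in PBS control 2. Of the primary granule enzymes, Prtn3, proteinase 3, was at 46.1, 56.4 and 54.4 TPM, Mpo, myeloperoxidase, at 17.4, 20.1 and 20.1 TPM and Elane, neutrophil elastase, at 10.1, 12.9 and 13.6 TPM. These 3 were lowest in PBS control 1, and PBS control 2 and 3 were close to each other. The mean of Ltf was 93.2 times that of Mpo. Cebpe, a transcription factor of the later granule steps, was at 32.3 ± 5.78 TPM, and Gfi1, a transcription factor of early granulocyte precursors, at 1.24, 1.49 and 3.25 TPM. PBS control 2 was highest in 12 of the 15 genes of this list and PBS control 3 in the other 3, against 26.3% and 48.1% of all genes. None differed more than 2-fold, against 7.52% of all genes.

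Shares by lineage add the TPM of a fixed list of genes, so they describe these genes and not proportions of cells: a list with 1 very abundant gene has a high share. Macrophage and monocyte genes (31) held 0.319, 0.252 and 0.305% of the TPM, lymphoid genes (67, immunoglobulins included) 0.379, 0.290 and 0.521%, epithelial genes (39) 0.678, 0.376 and 0.959%, endothelial genes (24) 0.0262, 0.0134 and 0.0276% and genes of fibroblasts and smooth muscle (21) 0.0415, 0.0186 and 0.0302%. By the median TPM of the genes in a list, which 1 gene cannot set, the order was 539 for neutrophils, 35.3 for macrophages and monocytes, 20.8 for lymphoid cells, 10.003 for epithelium, 4.81 for endothelium and 3.55 for fibroblasts and smooth muscle. The epithelial share rested on Scgb1a1, and without it was 0.253, 0.115 and 0.294%.

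**Figure D2:**
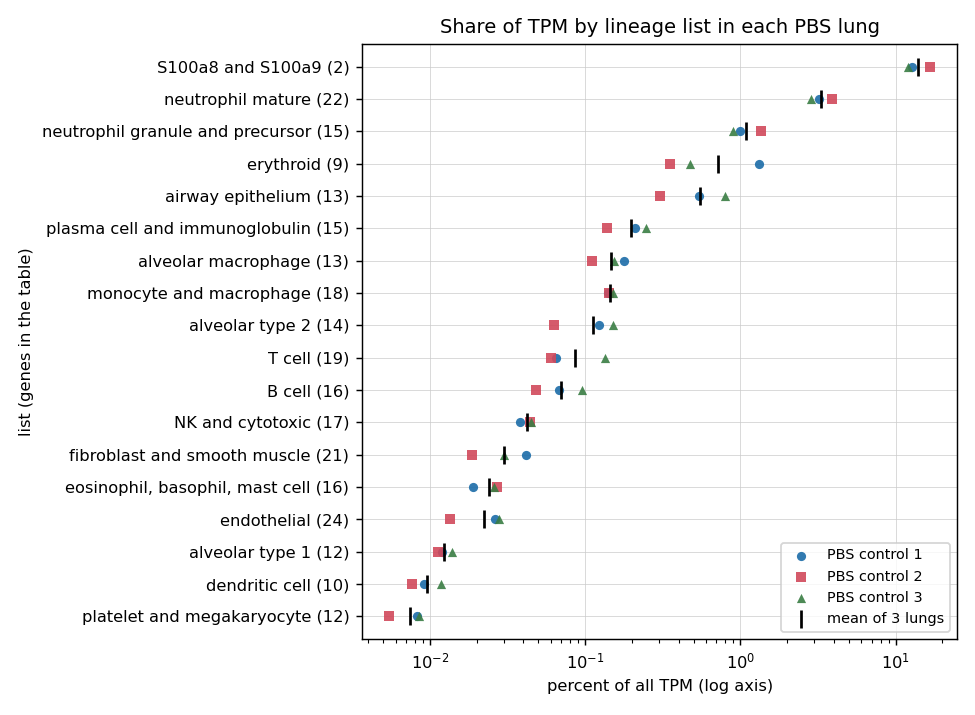
Share of all TPM held by each lineage list in each PBS lung, in percent on a log axis, with the number of listed genes in brackets and black bars for the mean of the 3 lungs. The calprotectin pair and the mature neutrophil list lead, and PBS control 2 is the leftmost lung in most lists of other cells.

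Alveolar macrophages, the resident phagocytes of the air spaces, were visible in every lung. Ear2, a ribonuclease of their eosinophil-associated family, was at 828, 540.4 and 744 TPM and its near relative Ear1 at 332, 221 and 265 TPM. Reads of these similar genes may be exchanged, so each level is uncertain. Plet1 was at 195, 101 and 173 TPM, and Atp6v0d2, a subunit of the proton pump, at 101, 53.1 and 89.4 TPM. All 13 genes of the list were lowest in PBS control 2 (53.9% of all genes were), and 12 were highest in PBS control 1 (25.6%). Both counts were the same after median-of-ratios scaling. Of the 13, 5 differed more than 2-fold, against 4.05% of all genes at 10 to 100 TPM. This count was 3 after median-of-ratios scaling, and 1 when either PBS control 1 or PBS control 2 was left out. The median gene had a highest value 1.91 times its lowest, against 1.28 over all genes. Chil3, a chitinase-like protein made by alveolar macrophages and neutrophil precursors, was at 1125, 734 and 722 TPM. It was low in both PBS control 2 and 3.

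Genes of monocytes and other macrophages had no order of lungs common to all members. Their share was 0.141, 0.142 and 0.152%. None of the 18 differed more than 2-fold, against 7.52% of all genes and 4.05% of those at 10 to 100 TPM. The median gene of the list had a highest value 1.37 times its lowest, against 1.28 over all genes, and members differed in opposite directions. Cd68, a lysosomal protein of phagocytes, was at 346, 256 and 309 TPM. Ly6c2, the marker of inflammatory monocytes, was at 222, 259 and 316 TPM, and Fcgr4, an activating Fc receptor, at 166, 218 and 159 TPM. Csf1r, the receptor that macrophages need to survive, was at 163, 174 and 165 TPM. Over the list, PBS control 2 was highest in 9, PBS control 3 in 5 and PBS control 1 in 4. After median-of-ratios scaling PBS control 2 was highest in 11 and PBS control 3 lowest in 11, against 42.2% and 35.4% of all genes. The SD of the index of these 18 genes, the mean log2(TPM + 1) of a list, was 0.04, and 0.14 after median-of-ratios scaling. Dendritic cell genes were scarce, with a median of 4.97 TPM, and 9 of 10 were expressed. Their highest was Ccr7, the chemokine receptor of migrating dendritic cells and of naive lymphocytes, at 51.97, 49.3 and 74.98 TPM. Batf3 was at 9.20 ± 1.30, Siglech at 6.27 ± 3.03 and Fscn1 at 6.19 ± 2.28 TPM. Genes of MHC class II, which present antigen to helper T cells, were far higher, with Cd74 at 1882, 1427 and 2302, H2-Aa at 593, 430.4 and 731 and H2-Ab1 at 528, 385 and 631 TPM. All 10 class II genes were highest in PBS control 3 and 9 were lowest in PBS control 2, against 48.1% and 53.9% of all genes. Of the 10, 2, H2-Oa and Ciita, differed more than 2-fold, against 7.52% of all genes. After median-of-ratios scaling 9 were highest in PBS control 3, 8 lowest in PBS control 2 and 1 differed more than 2-fold. None did without PBS control 2 or 3.

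B cell genes followed the same order in all 16 members, lowest in PBS control 2 and highest in PBS control 3. Cd79a, a signalling chain of the B cell receptor, was at 151, 115 and 213 TPM and its partner Cd79b at 115, 90.3 and 165 TPM. Fcmr, the receptor for IgM, was at 52.6, 36.2 and 99.8 TPM. Cd22, an inhibitory receptor of B cells, was at 68.95, 33.8 and 72.7 TPM and was low in PBS control 2 alone. After median-of-ratios scaling 15 were lowest in PBS control 2 and 14 highest in PBS control 3. More than 2-fold differences were seen in 6 of the 16, against 4.05% of all genes at 10 to 100 TPM. This count was 3 after that scaling, 1 when PBS control 2 was left out and 2 when PBS control 3 was. Of immunoglobulin and plasma cell genes, Igkc, the kappa light chain, was at 1069.8, 658 and 1251 TPM. Ighm, the heavy chain of IgM, was at 462, 352 and 550.1 TPM, and Iglc2, a lambda chain, at 108, 112 and 158 TPM. Igha, the heavy chain of IgA, was at 90.8, 69.7 and 108 TPM. Most of these were again lowest in PBS control 2 (12 of 14 expressed genes, against 53.9% of all genes). Ighg2b was at 61.7, 5.76 and 12.1 TPM, high in PBS control 1 alone. Ighg1 was at 5.03, 5.76 and 21.9 TPM, high in PBS control 3 alone. Ighg2c, the IgG2 heavy chain of the C57BL/6 reference strain, was at 23.4, 0.155 and 1.996 TPM, and was named after its values were seen. BALB/c mice are known to carry Ighg2a in its place.

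T cell genes were highest in PBS control 3 in all 19 members. PBS control 1 and 2 lay close together, and which of them had the lower index depended on the scaling. Trbc2, a constant region of the T cell receptor beta chain, was at 121, 110.1 and 287 TPM. Trbc1 was at 67.04, 62.3 and 158 TPM and Trac, the alpha chain constant region, at 72.7, 55.8 and 103 TPM. Tcf7, a transcription factor of naive and memory T cells, was at 47.1, 48.1 and 106 TPM. Of the 19 genes, 12 differed more than 2-fold, against 4.05% of all genes at 10 to 100 TPM. In 6, PBS control 3 stood more than 2-fold above both other lungs, against 0.916% of all genes (117). Those with the steepest step, named after their values were seen, were the co-receptor chains Cd8b1, at 15.4, 14.8 and 51.9 TPM, and Cd8a, at 8.54, 7.83 and 26.3 TPM. Foxp3, which defines regulatory T cells, stood at 3.82, 3.40 and 4.90 TPM. Genes listed for immature thymocytes were highest in the same lung, as were all 16 B cell genes. Their summed level over 5 genes was 1.005, 1.20 and 27.6 TPM. Dntt, the polymerase that adds bases at receptor gene joints, was at 0.536, 0.613 and 14.1 TPM. Rag1, the recombinase, was at 0.338, 0.460 and 8.62 TPM, Rag2 at 0.0358, 0.123 and 1.40 TPM and Arpp21 at 0.0947, 0 and 3.21 TPM. Ptcra, the pre-T cell receptor chain, was listed at 0 in PBS control 1 and 2 and at 0.237 TPM in PBS control 3. Of the 5, none was above 1 TPM in PBS control 1 or 2. Which cells made these transcripts, and the part of such cells in the T cell values, was not tested. With PBS control 3 left out, the SD of the T cell index was 0.06 in place of 0.58, and none of the 19 differed more than 2-fold. After median-of-ratios scaling all 19 were still highest in PBS control 3, and 7 differed more than 2-fold, as many as without PBS control 2.

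Natural killer and cytotoxic genes varied less between the lungs than T cell genes, with an index SD of 0.13 against 0.58. PBS control 3 was highest in 9 of 15 expressed members, against 48.1% of all genes. After median-of-ratios scaling it was highest in 5 and PBS control 2 in 10, against 30.6% and 42.2% of all genes. The share of TPM of this list was 0.0378, 0.0442 and 0.0447%. Of the 15, 1, Xcl1, differed more than 2-fold, near the 7.52% of all genes. Ccl5, a chemokine of cytotoxic lymphocytes, was at 178, 205 and 187 TPM and Gzma, granzyme A, at 86.98, 108 and 106 TPM. Nkg7, a protein of cytotoxic granules, was at 37.2, 43.5 and 59.7 TPM and Prf1, perforin, at 13.6, 15.7 and 17.8 TPM. Gzmb, granzyme B, was at 9.17, 13.1 and 8.87 TPM and Ifng, interferon gamma, at 2.50, 4.99 and 2.37 TPM, both highest in PBS control 2. Klra8, which encodes the activating receptor Ly49H, known to be missing in BALB/c mice, was listed at 0 in all 3 lungs.

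Epithelial genes were mostly lowest in PBS control 2: 10 of 12 airway genes, 14 of 14 of alveolar type 2 cells and 8 of 10 of alveolar type 1 cells, all expressed. The share over all genes was 53.9%. After median-of-ratios scaling the counts were 9, 10 and 6, against 37.7%. Of the 12 airway genes, 10 differed more than 2-fold, against 7.52% of all genes, and in 5 of them PBS control 2 stood more than 2-fold below both other lungs, against 1.35% of all genes (172). With PBS control 2 left out, 1 of the 12 differed more than 2-fold, and with PBS control 3 left out, 5 did. Scgb3a1, a secretoglobin of the upper airways, was at 351, 53.02 and 277 TPM and Scgb3a2 at 191, 60.04 and 269 TPM. Cbr2, a carbonyl reductase of club cells, was at 182, 108 and 326 TPM. PBS control 3 was highest for Scgb1a1, Scgb3a2 and Cbr2, and PBS control 1 for Scgb3a1. Among the most variable genes of the whole table were others known from airway secretions: Bpifa1, at 211, 38.8 and 191 TPM, Bpifb1, at 12.9, 1.04 and 16.1 TPM, and Reg3g, an antibacterial lectin, at 36.01, 3.64 and 48.2 TPM. Each was low in PBS control 2 alone.

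Genes of the alveolar type 2 list differed more than 2-fold in 7 of 14 members, against 4.05% of all genes at 10 to 100 TPM. The count was 5 after median-of-ratios scaling, 0 when PBS control 2 was left out and 3 when PBS control 3 was. Sftpc, the surfactant protein C gene at chr14:70520949-70524081, was at 804, 343 and 1021 TPM. Sftpa1 was at 98.5, 36.4 and 113 TPM and Sftpb at 73.5, 38.2 and 92.3 TPM. Napsa, the aspartic protease that processes surfactant protein B, did not follow them and was at 149, 139 and 144 TPM. Abca3, the lipid pump of lamellar bodies, was as even, at 21.6, 20.2 and 21.997 TPM. Of alveolar type 1 genes, Hopx was at 70.7, 80.2 and 74.97 TPM and Ager, the receptor for advanced glycation end products, at 17.03, 17.1 and 27.5 TPM, neither of them low in PBS control 2 alone. Emp2 was at 12.4, 4.62 and 15.3 TPM and Aqp5, a water channel, at 3.91, 1.42 and 4.81 TPM, both low there. General epithelial genes were modest, with Krt19 at 80.2, 37.7 and 65.02 TPM, Epcam at 20.02, 10.2 and 13.2 TPM, Krt8 at 11.4, 9.09 and 12.4 TPM and Cdh1, E-cadherin, at 10.4, 9.35 and 10.9 TPM.

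Carcinoma cells would share such keratins with the lung's own epithelium. Of 16 keratin and carcinoma genes, 8 were expressed. The basal keratins Krt5, Krt14 and Krt17 stayed below 0.5 TPM in every lung and Krt6a was listed at 0 in all 3. None of 8 mammary genes was expressed: the highest, the oestrogen receptor gene Esr1, was at 0.757, 0.740 and 0.721 TPM, and the milk protein genes Csn1s1, Csn3 and Wap were listed at 0 in all 3 lungs. A share of 4T1 cells cannot be given from these genes, since no transcript particular to the line was analysed here.

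Endothelial genes were lowest in PBS control 2 in 21 of 22 expressed members, and in 20 after median-of-ratios scaling, against 53.9% and 37.7% of all genes. Pecam1, the CD31 adhesion protein, also found on leukocytes, lies at chr11:106654217-106750628 and was at 22.9, 19.04 and 30.1 TPM. Car4, a carbonic anhydrase of lung capillaries, was at 103, 55.2 and 73.8 TPM and highest in PBS control 1. Without it, the mean share of the endothelial list was 0.0147% in place of 0.0224%. Egfl7 was at 20.7, 6.98 and 22.4 TPM and Cldn5, a tight junction protein, at 14.5, 5.11 and 22.6 TPM, both highest in PBS control 3. Pecam1 was much more even than Egfl7 and Cldn5, and like them was lowest in PBS control 2. Of the 22 genes, 15 differed more than 2-fold, against 12.2% of all genes at 1 to 10 TPM, and in 7 PBS control 2 stood more than 2-fold below both others, against 1.35% of all genes. Relative to the mean of the 3 lungs, the endothelial index was 0.19, -0.63 and 0.44. After TPM were rescaled without S100a8 and S100a9 it was 0.18, -0.61 and 0.43, and after median-of-ratios scaling 0.19, -0.55 and 0.36, in the same order of lungs. With PBS control 2 left out, its SD was 0.17 in place of 0.56 and none of the 22 genes differed more than 2-fold. With PBS control 3 left out, 8 did. Mitochondrial genome transcripts were also lowest in PBS control 2, with an index of 0.39, -0.66 and 0.26, and the S100a8 and S100a9 index was highest there, at -0.11, 0.29 and -0.19. Their part in the endothelial and epithelial values was not tested.

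Fibroblast and smooth muscle genes were lowest in PBS control 2 in 17 of 19 expressed members, against 53.9% of all genes. PBS control 1 and 3 were each highest in 9, against 25.6% and 48.1% of all genes. Of the 19, 10 differed more than 2-fold, against 12.2% of all genes at 1 to 10 TPM. This count was 7 after median-of-ratios scaling. It was 4 when PBS control 1 was left out, 2 when PBS control 2 was and 6 when PBS control 3 was. Dcn, the proteoglycan decorin, was at 168, 57.003 and 80.9 TPM and stood more than 2-fold above both other lungs in PBS control 1. Mgp was at 71.9, 33.5 and 55.2 TPM, Inmt at 38.2, 21.6 and 47.4 TPM and Col3a1, a collagen chain, at 47.97, 25.5 and 29.9 TPM. The smooth muscle gene Acta2 was at 7.48, 10.99 and 8.99 TPM and highest in PBS control 2. Mesothelium, the layer that covers the lung, was most visible in PBS control 1 in all 5 genes. Upk3b was at 30.1, 8.89 and 14.2 TPM and Msln, mesothelin, at 17.5, 5.38 and 11.5 TPM. All 5 differed more than 2-fold, against 7.52% of all genes (3 with PBS control 2 left out, and none with PBS control 1 left out).

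Red cell transcripts stood apart in 1 lung. Hba-a2, an alpha globin gene, was at 5086, 1346 and 1824 TPM, and Hbb-bs, a beta globin gene, at 4676, 1186 and 1645 TPM. Hba-a1 was at 2731, 731 and 973 TPM and Hbb-bt at 718, 224 and 279.9 TPM. In all 5 erythroid expressed genes, Alas2 among them, PBS control 1 was more than 2-fold above both other lungs, against 0.493% of all genes (63). Near-identical globin copies share reads, so single globin levels are uncertain, but all were highest in PBS control 1. Other genes of red cell precursors and membranes, among them Slc4a1, Klf1 and Epb42, had means below 1 TPM. Without PBS control 1 the SD of the erythroid index was 0.23 in place of 0.94, and none of the 5 differed more than 2-fold. Of 9 expressed platelet genes, none stood more than 2-fold above both other lungs in PBS control 1. Between highest and lowest lung, 4 of the 9 differed more than 2-fold, against 12.2% of all genes at 1 to 10 TPM. This count was 1 after median-of-ratios scaling and 0 when PBS control 2 was left out. Pf4, platelet factor 4, was at 39.8, 24.1 and 32.7 TPM, in the same order of lungs as the globins. Ppbp was at 8.02, 5.28 and 12.7 TPM. PBS control 1 was highest in 4 of the 9 and PBS control 3 in 5. PBS control 2 was lowest in 7, against 53.9% of all genes. Itgb3 was at 8.73 ± 1.71 TPM and Itga2b at 7.87 ± 0.694 TPM.

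Eosinophil, basophil and mast cell genes were scarce. The basophil protease Mcpt8 was at 42.8, 59.8 and 66.3 TPM and Prss34, another, at 37.6, 58.9 and 63.2 TPM. Both were lowest in PBS control 1. Prg2, the major basic protein of eosinophils, was at 29.999, 47.1 and 27.6 TPM and Ear6, of the same ribonuclease family as Ear2, at 34.8, 47.4 and 26.9 TPM. Both were highest in PBS control 2. Of 16 genes, 3 differed more than 2-fold, and none with PBS control 3 left out. The share over all genes at 1 to 10 TPM was 12.2%. Genes of tissues that lie next to the lung were near the floor. Of 12 cardiac muscle genes, 3 were expressed, all highest in PBS control 3. Myl4, a myosin light chain of the atria, was at 5.17, 4.21 and 7.33 TPM and Tnni3, cardiac troponin I, at 1.07, 1.60 and 5.02 TPM. The summed level of the 12 genes was 10.4, 8.14 and 17.4 TPM. No adipose gene was expressed, and Lep, leptin, was listed at 0 in all 3 lungs.

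The myeloid genes linked to suppression of T cells ranged widely in level. Between lungs, 1 of 15 expressed members differed more than 2-fold, near the 7.52% of all genes. After median-of-ratios scaling 3 did, against 6.30% of all genes. Subunits of the NADPH oxidase, which makes superoxide, led them: Cyba was at 1371, 1320.4 and 1244 TPM and Ncf4 at 607, 760.5 and 576 TPM. Prok2, a secreted factor of neutrophils that promotes vessel growth, was at 335, 519 and 287 TPM. Arg2, the mitochondrial arginase, was at 174, 210.0 and 169 TPM. Arg1, the cytosolic arginase known from suppressive macrophages and granulocytes, was the 1 that did. It was at 1.37, 24.8 and 5.21 TPM, 18.1 times as high in PBS control 2 as in PBS control 1, and came after only Rn7s1 and Reg3g in spread among 6648 genes averaging 10 TPM or more. Nos2, the inducible nitric oxide synthase, was at 19.2, 29.9 and 15.4 TPM. Ido1, which breaks down tryptophan, stayed at or below 0.101 TPM. Of the 15 expressed members, PBS control 2 was highest in 9 and PBS control 3 lowest in 11, against 26.3% and 18.4% of all genes. With median-of-ratios scaling these counts were 12 and 12, against 42.2% and 35.4%.

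Of 31 cytokine and chemokine genes, 24 were expressed and 18 of these were highest in PBS control 1, against 25.6% of all genes. Il1b exceeded all others. Ccl6, a chemokine of myeloid cells, was at 1643, 1253 and 1571 TPM and Cxcl2, which attracts neutrophils, at 651, 761 and 769 TPM. Il1a, the other ligand of the interleukin 1 receptor, was at 22.2, 4.45 and 7.02 TPM and high in PBS control 1 alone, as was Ccl17 at 14.9, 3.50 and 4.23 TPM, named after its values were seen. Il1rn, the receptor antagonist, was even, at 113, 111 and 108 TPM. The mean of Il1b was 353 times that of Il1a and 205 times that of Tnf, which was at 24.01, 18.1 and 16.05 TPM. Below 1 TPM on average were Csf2, Csf3, Cxcl5, Ifnb1, Il10, Il12b and Il17a.

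Receptors and ligands of checkpoint and co-stimulation, the targets of cancer immunotherapy, were low, all but 2 staying below 12 TPM. Vsir, listed in the table under an older name, encodes VISTA, an inhibitory ligand of myeloid cells, and was at 379, 459 and 350.2 TPM. Cd274, which encodes the PD1 ligand PD-L1, was at 38.5, 25.2 and 33.9 TPM. Pdcd1, the PD1 gene itself, was at 2.60, 0.586 and 2.45 TPM, lowest in PBS control 2. The mean of Cd274 was 17.3 times that of Pdcd1. Cd86, a ligand of CD28 and CTLA-4, was at 8.37, 9.19 and 9.82 TPM and Havcr2, which encodes TIM-3, at 10.3, 6.90 and 8.93 TPM. Of 15 expressed genes, 2 differed more than 2-fold, near the 12.2% of all genes at 1 to 10 TPM. The count was 1 after median-of-ratios scaling, 1 when PBS control 1 was left out and 0 when PBS control 2 was.

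**Figure D3:**
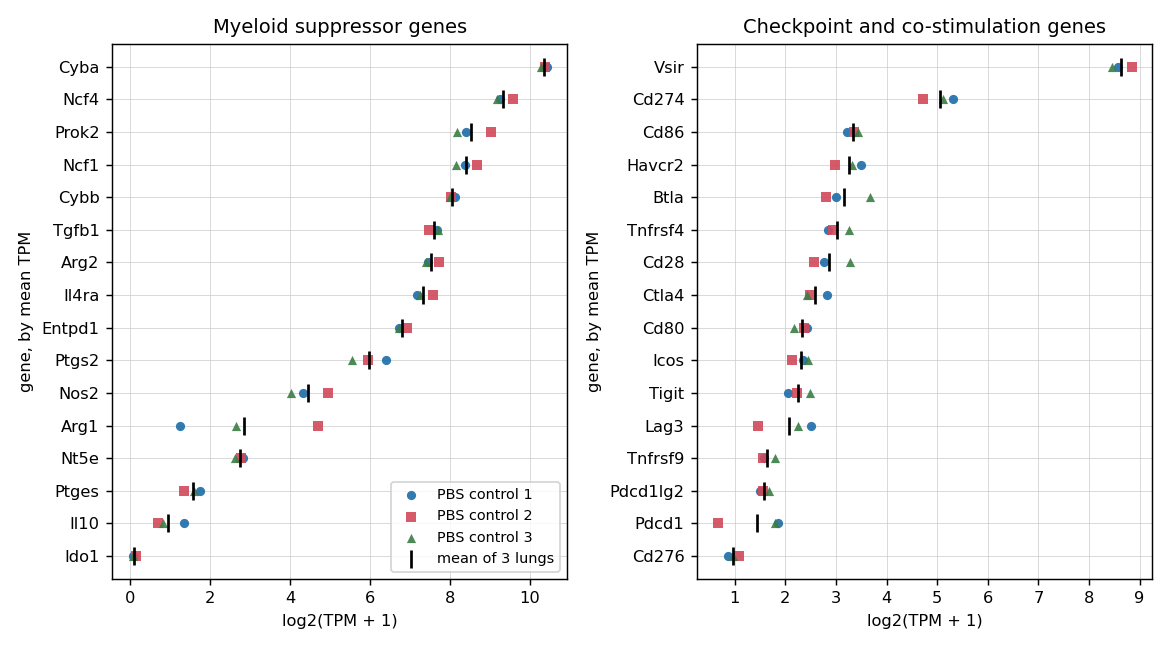
Level of myeloid suppressor genes (left, all listed but 1) and of each checkpoint or co-stimulation gene (right) in the PBS lungs, as log2(TPM + 1), ordered by mean TPM, with black bars for the mean of the 3 plotted values. Arg1 has the widest spread on the left, and on the right Vsir and Cd274 stand above genes at less than 12 TPM.

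Immediate early genes, which are induced within minutes by many stimuli, were among the more abundant genes, with a list median of 622 TPM. Junb was at 3372, 3669 and 2992 TPM and Zfp36, which destabilises cytokine messengers, at 2465, 3273 and 2534 TPM. Dusp1, a phosphatase of MAP kinases, was at 2228, 2829 and 2626 TPM and Fos at 2164, 2752 and 2099 TPM. PBS control 2 was highest in 9 of the 12 and PBS control 3 lowest in 9, against 26.3% and 18.4% of all genes. With median-of-ratios scaling these counts were 11 and 10, against 42.2% and 35.4%. None of the 12 differed more than 2-fold, against 2.37% of all genes at 100 TPM or more. Among heat shock genes, Hspa8, the constitutive HSP70, was at 935, 778 and 1123 TPM. The inducible copies Hspa1a and Hspa1b, which are nearly identical and hence uncertain singly, were both lowest in PBS control 1 and highest in PBS control 2. Hspa1a was at 19.6, 44.6 and 28.1 TPM and Hspa1b at 29.1, 53.5 and 39.4 TPM. Dnaja1, a partner of HSP70, was highest in PBS control 3, at 145, 145 and 169 TPM.

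Interferon response genes had a different order of lungs. Of 19 genes, 15 were lowest in PBS control 1 and 14 highest in PBS control 3, against 27.7% and 48.1% of all genes, and the order of their index was the same under both scalings. Ifitm3, an antiviral membrane protein, led by level at 1561, 2005 and 1672 TPM and was highest in PBS control 2. Isg15, a ubiquitin-like protein, was at 101, 109.9 and 159 TPM, and Irf7, a transcription factor of interferon induction, at 100.1, 119 and 148 TPM. Irf1 was at 111, 135 and 119 TPM. Of the 19, 2 differed more than 2-fold, against 7.52% of all genes. This count was 1 after median-of-ratios scaling and 0 without PBS control 1 or 3. Genes of MHC class I, which presents antigen to cytotoxic T cells, were high, with B2m, its light chain, at 2159.6, 2133 and 2366 TPM. H2-D1 was at 1383, 1459.7 and 1437 TPM and H2-K1 at 684, 656 and 762 TPM. None of 13 class I genes differed more than 2-fold, against 7.52% of all genes and 2.37% of those at 100 TPM or more. Cell cycle genes had a median of 7.01 TPM. Ube2c led at 26.2, 17.5 and 28.4 TPM, ahead of Top2a, a topoisomerase, at 20.5, 11.1 and 18.3 TPM, and Mki67, the proliferation marker Ki-67, was at 8.89, 6.38 and 8.28 TPM. All 18 expressed were lowest in PBS control 2, and 17 after median-of-ratios scaling, against 53.9% and 37.7% of all genes. Of the 18, 2 differed more than 2-fold, near the 12.2% of all genes at 1 to 10 TPM. This count was 1 after that scaling and 0 without PBS control 2 or 3.

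Across the lists, PBS control 2 was often at an extreme. Taken relative to the mean of the 3 lungs, its index was above 0 by 0.29 for S100a8 and S100a9, 0.27 for mature neutrophil genes and 0.21 for neutrophil granule genes. Among other lists where it was above 0 were myeloid suppressor genes at 0.25 and immediate early genes at 0.16. Among the lists where it was below 0 were airway epithelium at -0.89, mesothelium at -0.74, mitochondrial genome genes at -0.66 and endothelial genes at -0.63. Others were plasma cell and immunoglobulin genes at -0.63, alveolar type 2 genes at -0.49 and B cell genes at -0.48. For erythroid genes it was -0.70, but there PBS control 1 stood apart at 1.07, with PBS control 3 at -0.37. These signs held under median-of-ratios scaling and with TPM rescaled without S100a8 and S100a9 (for S100a8 and S100a9 themselves, the first applies alone). The signs that did not hold belonged to small values, such as those of monocyte and macrophage, interferon response and MHC class I genes. Gene by gene, 172 genes stood more than 2-fold below both other lungs in PBS control 2, 38 in PBS control 1 and 29 in PBS control 3 (1.35%, 0.298% and 0.227% of those compared). In the other direction, 33 stood above in PBS control 2, 63 in PBS control 1 and 117 in PBS control 3 (0.258%, 0.493% and 0.916%).

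**Figure D4:**
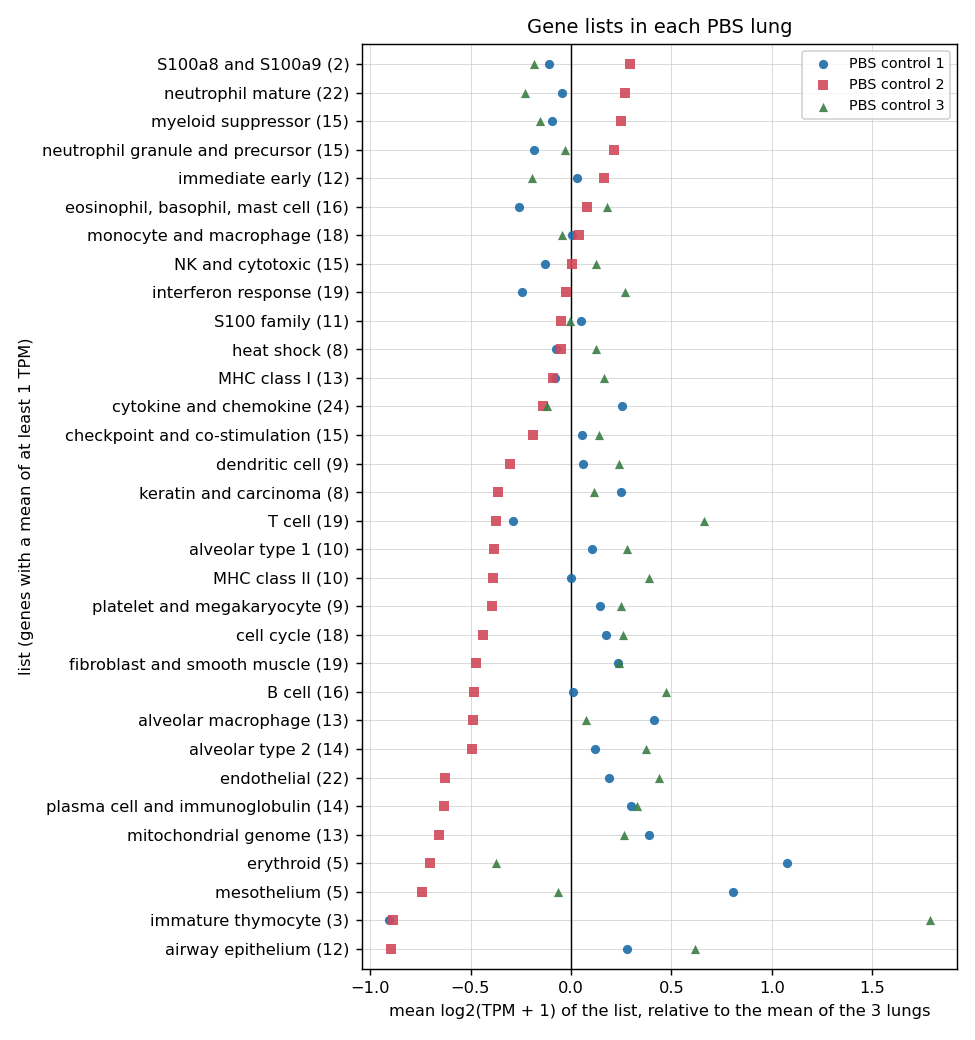
Mean log2(TPM + 1) of each gene list in each PBS lung relative to the mean of the 3 lungs, for lists with at least 5 expressed genes and 2 shorter lists, ordered by PBS control 2. PBS control 2 leads the neutrophil, myeloid suppressor and immediate early lists and is lowest in most lists further down. PBS control 1 is far right for erythroid and mesothelial genes and PBS control 3 for thymocyte and T cell genes. The 3 thymocyte genes plotted averaged 1 TPM or more only through PBS control 3, so their place there follows from the filter.

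The genes with the widest spread among 6648 averaging 10 TPM or more and a named symbol were of several kinds. Rn7s1, a copy of 7SL RNA, had the widest, listed at 0 in PBS control 1 and at 322 and 180.4 TPM in the others. Its near-identical copy Rn7s2 was at 371, 111 and 286 TPM, and since reads can be divided between copies both levels are uncertain. After it came Reg3g, Arg1, Bpifb1, Ighg2b, Cyr61, Scgb3a1, Lypd2, Bpifa1, mt-Nd3, Scgb3a2, Rmrp, Il1a, Ighg1 and Hbb-bs. Cyr61, a matrix protein induced by stretch and growth factors, was at 70.3, 7.60 and 18.7 TPM. Lypd2 was at 23.6, 2.97 and 19.9 TPM, and mt-Nd3, a subunit of respiratory complex I, at 287, 56.6 and 244 TPM, both low in PBS control 2. Rmrp, the RNA of a ribonuclease, was at 3.87, 8.36 and 20.8 TPM and highest in PBS control 3. At the other end stood the most even genes. Ptdss1, a phosphatidylserine synthase, was at 17.1, 17.1 and 17.1 TPM. Bag6, a chaperone for membrane proteins, was at 90.1, 90.3 and 90.4 TPM. Of the 15 most even, 12 others, from Ube4b to Srpk2, had means of 15.7 to 48.5 TPM. The median gene averaging 10 TPM or more had a coefficient of variation of 10.9% between the lungs.

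**Figure D5:**
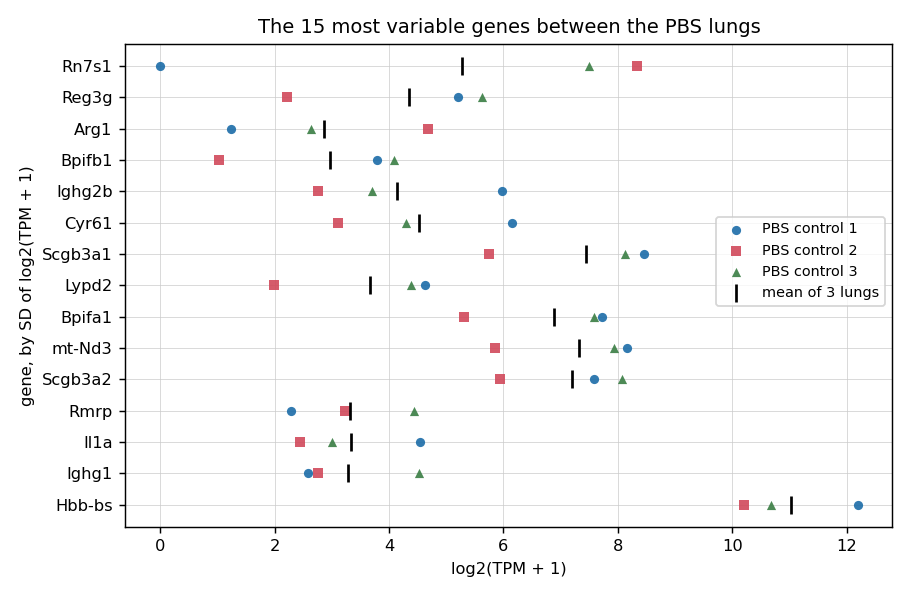
The 15 genes with the largest SD of log2(TPM + 1) between the PBS lungs, with black bars for the mean of the 3 plotted values. PBS control 2 is lowest in 11 of the 15, among them the airway genes, and PBS control 1 lies at 0 for Rn7s1.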

How the data were processed

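Gene-level TPM were made by the authors with salmon, as the name of the deposited table gives it, and the submitters' processing notes name the genome build GRCm38 and DESeq2 without their role. The annotation release and the salmon version are not given in the sources used here. The table held 45706 gene rows, and the columns of the 3 PBS lungs, matched to the samples by title, were used as deposited. TPM keep no read depth, so counting error cannot be given. No groups were compared, no test was made and no p-value is given.

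Tables were read with Python 3.11.15, NumPy 2.4.6 and pandas 2.3.3, and figures drawn with Matplotlib 3.10.9. Log values, 2-fold calls and the highest over lowest value of the median gene used TPM + 1. Ratios between the means of 2 named genes, and that of Arg1 between lungs, used TPM with nothing added. Counts over lists used genes averaging 1 TPM or more, called expressed. A list's index is the mean log2(TPM + 1) of those genes. The 2-fold calls were tested on simulated data with less spread between lungs than these data had, and the median-of-ratios factors on known ratios. The index and the shares of TPM were not tested in this way. The 35 gene lists hold 483 genes, of which 1 was not matched and 2 were matched by gene ID. The lists and the genes in them were chosen with earlier results of these data known, while the lungs were chosen by their labels alone. Named by rule were the 30 most abundant rows, the 4 highest members of each list and those at 0 in all 3 lungs, the 15 most and 15 least variable genes averaging 10 TPM or more and a symbol other than a predicted gene or variable segment, and 19 genes given by name. Other genes were named after their values were seen. Median-of-ratios scaling, TPM rescaled without S100a8 and S100a9 or without the mitochondrial genes, other pseudocounts, other filters and leaving out each lung were the alternatives. Counts of list members under a lung left out or under median-of-ratios scaling were added after seeing the data. Coordinates are those of GENCODE M21 on GRCm38, whose strain is C57BL/6J while the mice were BALB/c, and pseudogenes were aligned to the mitochondrial genome with blastn 2.17.0. Promoters and motifs are from RefSeq, GRCm38.p6. Some genes are not reported here by name. The 6 libraries of antibody-treated mice are not described here.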

Additional observations from a re-analysis of the deposited data

How the results depend on the processing

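Of 249 values recomputed under the alternatives, 206 stayed within 1 SD of the lungs or, for counts and SDs, within 1.5 times and 43 moved further. These values have no sign. Of the signed list indices relative to the 3-lung mean, those of monocyte and macrophage, interferon response and MHC class I genes, among others, changed sign in 1 lung with the scaling. Without its most abundant gene, a list's mean share of TPM was 6.17% for S100a8 and S100a9, 2.59% for mature neutrophil, 0.722% for neutrophil granule, 0.0184% for eosinophil, basophil and mast cell, 0.0763% for alveolar macrophage, 0.115% for monocyte and macrophage, 0.00368% for dendritic cell, 0.0988% for plasma cell and immunoglobulin, 0.0232% for natural killer and cytotoxic, 0.0398% for alveolar type 2, 0.00486% for alveolar type 1, 0.0962% for airway and 0.00419% for platelet genes, since a share without its leading gene is smaller by construction. With TPM rescaled without S100a8 and S100a9, shares were 3.87% for mature neutrophil, 0.168% for monocyte and macrophage, 0.0491% for natural killer and cytotoxic and 0.0144% for alveolar type 1 genes, and 242 genes held 50% of the TPM. The share of genes differing more than 2-fold was 13.03% with a pseudocount of 0.1, 1.94% with a pseudocount of 5, 4.71% among genes averaging 5 TPM or more, and 2.60 to 4.71% with 1 lung left out. In this last range the filter of 1 TPM was applied to the mean of the remaining lungs. It therefore differs from the shares given for the fixed set of 12766 genes. The SD of the monocyte and macrophage index was 0.14 after median-of-ratios scaling and 0.081 without S100a8 and S100a9, and that of the erythroid index was 0.54 over every listed gene.

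With 1 lung left out, the SD of a list's index ranged over 0.055 to 0.34 for S100a8 and S100a9, 0.13 to 0.35 for mature neutrophil, 0.11 to 0.28 for granule, 0.069 to 0.31 for eosinophil, basophil and mast cell, 0.24 to 0.64 for alveolar macrophage, 0.023 to 0.060 for monocyte and macrophage, 0.13 to 0.38 for dendritic cell, 0.022 to 0.68 for plasma cell and immunoglobulin, 0.060 to 0.73 for T cell, 0.18 to 0.61 for alveolar type 2, 0.12 to 0.47 for alveolar type 1, 0.24 to 1.07 for airway, 0.17 to 0.75 for endothelial, 0.0043 to 0.50 for fibroblast and smooth muscle, 0.23 to 1.26 for erythroid and 0.08 to 0.46 for platelet genes. Over all genes 2.52% differed more than 2-fold between PBS control 1 and 3, 3.99% between PBS control 1 and 2 and 4.54% between PBS control 2 and 3. No paired analysis was possible because no groups were compared and no test was made. The number of lungs and the unknown depth limit what can be said of genes near 1 TPM.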

Other observations

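Antigen receptor segments gave another view of the lymphoid RNA in these lungs. Variable segments of the immunoglobulin genes, 350 rows of which 156 had a mean of at least 1 TPM, held 0.275, 0.157 and 0.309% of the TPM in PBS control 1, 2 and 3. The most abundant segment differed between lungs. Ighv2-9 held 9.52% of the class in PBS control 1, Igkv1-110 held 3.88% in PBS control 2 and Igkv10-96 held 4.00% in PBS control 3. It took 19, 24 and 27 segments to hold 50% of the class. Variable segments of the T cell receptor genes, 170 rows of which 71 had a mean of at least 1 TPM, held 0.0271, 0.0292 and 0.0595% of the TPM. Trbv13-1 was the first of them in each lung, with 9.49, 12.3 and 9.10% of the class, and 9 segments held 50% in every lung. Segments resemble each other and the mice carry BALB/c alleles, so single segment levels are uncertain.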
